A study of Mus musculus with 7 samples.

Results

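Genes of neutrophils, the short-lived phagocytes that are the first leukocytes to enter infected tissue, were followed in mouse spleen cells selected towards natural killer (NK) cells. The set lists 35 genes, chosen by name as neutrophil genes. A gene was measured where a probe (transcript cluster) of the array carried its symbol and no other, which was so for 32 of the 35, out of 19752 genes measured in all. Chi3l1, Fpr1 and Fpr2 had no such probe and were not analysed here. The 32 were split into 14 early granule genes, which neutrophil precursors switch on in the bone marrow while they build their granules, and 18 mature genes, which late precursors and circulating neutrophils express. Each of the 32 had 1 probe.

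The cells came from spleens of 6-week-old male C57BL/6 mice, were selected negatively with an EasySep kit, carry the phenotype marker NK1.1 in the labels, and were cultured for 8 h. The 4 IL2 arrays (replicates 1 to 4) hold cells given interleukin 2 at 250 U/ml, and the 3 untreated arrays (replicates 2 to 4) hold cells cultured without cytokine. Each is an Affymetrix Mouse Gene 1.0 ST array. The titles of replicates 3 and 4 name the 8 h time and those of replicates 1 and 2 do not; other labels give 8 h for all 7. No label says whether replicates were separate mice or cultures, and a p-value therefore reflects only how far these arrays vary, which may be technical.

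Neutrophils make their granules in order. Promyelocytes fill azurophil granules with myeloperoxidase and serine proteases, myelocytes and metamyelocytes fill specific granules with lactoferrin, cathelicidin and lipocalin, and maturing cells then gain gelatinase and the receptors CXCR2 and G-CSF receptor. The transcription factor PU.1 acts through the myeloid series, and C/EBP epsilon is known to drive the specific granule genes. Mouse spleen holds neutrophils in its red pulp and can also hold granulocyte precursors.

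Promoter windows of 5 members are printed. They are those of the 4 azurophil granule genes, whose levels moved together between arrays, and of Mmp8, which had the largest change with IL2. They are RefSeq windows of 300 bases (250 before the transcript start and 50 from it), build GRCm38.p6, on the gene's strand. Capitals mark GAGGAAGT, a core of PU.1 sites, or TTGCNNAA, a core of C/EBP sites, each searched on both strands. The windows lie at chr11:87793534-87793833 (+) for Mpo, chr10:79886062-79886361 (+) for Elane, chr10:79879417-79879716 (+) for Prtn3, chr14:56102525-56102824 (-) for Ctsg and chr9:7558179-7558478 (+) for Mmp8.
Mpo: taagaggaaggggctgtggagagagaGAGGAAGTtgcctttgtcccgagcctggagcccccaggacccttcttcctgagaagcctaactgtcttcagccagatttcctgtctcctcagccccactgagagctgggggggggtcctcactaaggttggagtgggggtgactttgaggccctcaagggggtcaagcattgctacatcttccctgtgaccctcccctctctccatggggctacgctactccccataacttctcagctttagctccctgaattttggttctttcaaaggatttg
Elane: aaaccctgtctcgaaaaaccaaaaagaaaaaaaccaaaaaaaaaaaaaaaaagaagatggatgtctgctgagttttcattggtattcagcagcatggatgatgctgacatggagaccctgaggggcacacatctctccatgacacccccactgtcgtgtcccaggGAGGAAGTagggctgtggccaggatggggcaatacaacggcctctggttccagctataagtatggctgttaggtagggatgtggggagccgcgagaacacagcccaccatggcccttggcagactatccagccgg
Prtn3: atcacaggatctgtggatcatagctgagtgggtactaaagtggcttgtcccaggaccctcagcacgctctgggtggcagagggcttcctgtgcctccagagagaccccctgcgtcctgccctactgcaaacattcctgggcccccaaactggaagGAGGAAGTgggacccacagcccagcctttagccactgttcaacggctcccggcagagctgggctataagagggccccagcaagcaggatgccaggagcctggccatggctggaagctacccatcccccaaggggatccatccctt
Ctsg: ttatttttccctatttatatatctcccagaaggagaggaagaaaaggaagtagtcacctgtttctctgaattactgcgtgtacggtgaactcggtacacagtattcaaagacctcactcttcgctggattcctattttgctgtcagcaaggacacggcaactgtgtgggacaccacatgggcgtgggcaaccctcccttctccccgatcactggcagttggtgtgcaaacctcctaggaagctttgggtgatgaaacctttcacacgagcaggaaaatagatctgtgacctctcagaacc
Mmp8: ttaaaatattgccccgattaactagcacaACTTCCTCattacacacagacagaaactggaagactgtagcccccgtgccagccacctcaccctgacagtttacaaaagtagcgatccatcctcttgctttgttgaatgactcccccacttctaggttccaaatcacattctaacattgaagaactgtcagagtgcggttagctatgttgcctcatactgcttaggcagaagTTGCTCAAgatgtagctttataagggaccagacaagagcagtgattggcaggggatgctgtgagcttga

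The PU.1 core began 224 bases before the start of Mpo, 85 before that of Elane and 95 before that of Prtn3, each time on the gene's own strand, and was not found in the window of Ctsg. Elane and Prtn3 neighbour each other on chromosome 10. In Mmp8 the reverse complement of the PU.1 core began 221 bases before the start and a C/EBP core 19 bases before it. Of the 29 members with a window, 9 (31.0%) held the PU.1 core and 8 (27.6%) the C/EBP core in at least 1 window. Of all 32851 windows, 3.2% and 10.8% did. These shares are unlike, since members were counted by gene and the rest by window. A gene with several windows, such as Ly6g or Il1rn, had more chances of a match. The PU.1 core was in 6 of 13 early granule genes and 3 of 16 mature genes, and the C/EBP core in 0 of 4 azurophil and 4 of 9 specific granule genes (Mmp8, Lcn2, Ngp and Ltf). A match describes the letters of the window and no more. No link between a match and the expression values was tested.

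Values are log2 intensities. The median linear intensity was 121 to 131 per array. A gene was called where limma, corrected by Benjamini-Hochberg over all genes, gave an adjusted p under 0.05. IL2 raised 410 genes (69.7% of calls) and lowered 178 by this rule. After quantile normalization again the counts were 694 (54.6%) and 577, and with 1 array left out 134 to 517 and 65 to 152. A member was described as dim where its mean lay below 6.85, the 95th percentile of 1027 olfactory receptor genes, which splenic leukocytes mostly lack. Padi4, Olfm4, Trem1, Il1r2 and Clec5a were dim (5 of 32, beside 48.2% of all genes).

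With IL2, 4 of 32 neutrophil genes fell and 0 rose. The 4 were Mmp8, Hp, Trem3 and Ptafr. This is 12.5% of the members, beside 0.901% of all genes called lower and 2.08% called higher. The fold over untreated cells ran from 1.68-fold lower for Ptafr to 5.6-fold lower for Mmp8. The member differences had a median of -0.51 on the log2 scale, beside -0.01 over all genes, and 30 of 32 were negative. At an unadjusted p under 0.05, 13 members were lower (40.6%, beside 4.67% of all genes) and 1 higher (3.12%, beside 8.81%). For 7 members every IL2 array lay below every untreated array (21.9%, beside 3.38% of all genes), and for 1, Mmp25, every IL2 array lay above (3.12%, beside 6.25%). Mmp8 kept its call in all 7 refits that dropped an array. Dropping untreated replicate 2 or IL2 replicate 4 left 2 members called lower, and dropping IL2 replicate 2 or IL2 replicate 3 left 1. The number was 10 with title style as a block and 7 after quantile normalization again. In such bulk samples fewer cells of a type and less RNA per cell cannot be told apart.

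**Figure D1:**
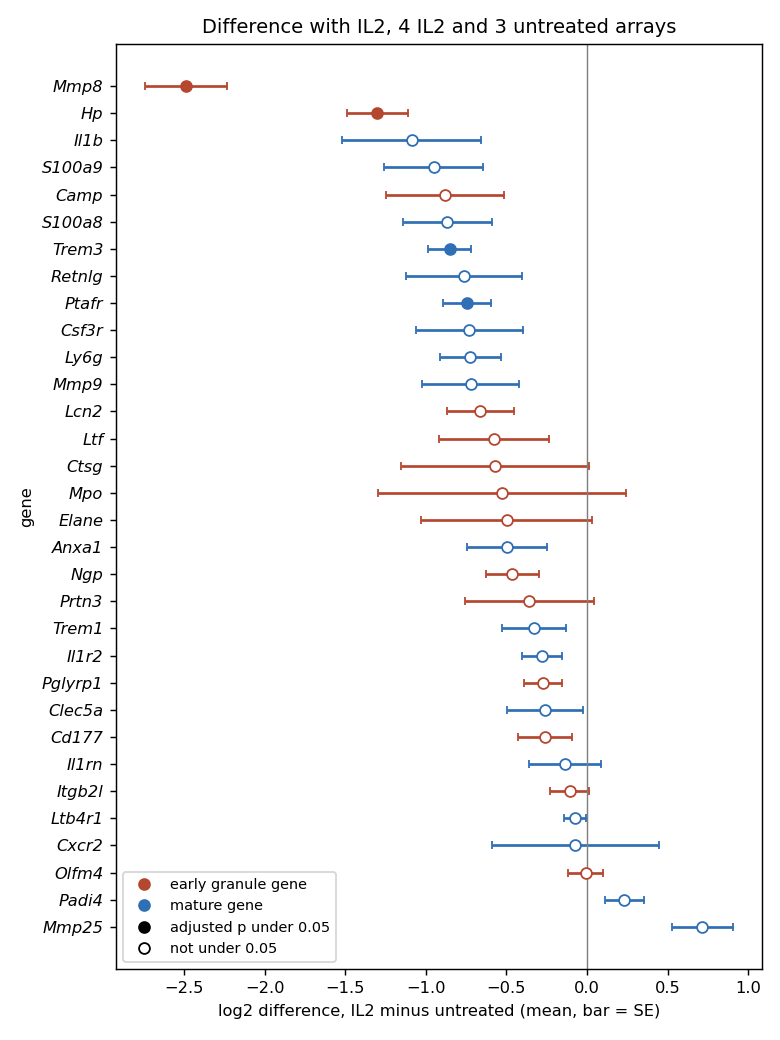
Log2 difference between 4 IL2 and 3 untreated arrays for each of the 32 genes (points, with bars of 1 SE from limma), in red for early granule genes and blue for mature genes, filled where the adjusted p was under 0.05. Mmp8 lies at -2.49 and Mmp25, at 0.72, lies farthest to the right, with 4 filled points, all below 0.

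Among the specific granule genes, Mmp8, the neutrophil collagenase, showed the largest change. Its log2 intensity was 9.58, 10.56 and 10.27 on untreated replicates 2, 3 and 4 and 7.33, 7.45, 7.88 and 7.95 on IL2 replicates 1 to 4. Every untreated array lay well above every IL2 array. The fall was from 10.14 ± 0.51 (SD, n = 3) to 7.65 ± 0.31 (n = 4), a log2 difference of -2.49 (SE 0.25, limma adjusted p = 0.00285). Hp encodes haptoglobin, a haemoglobin-binding protein that granulocytes also store. It read 8.42, 8.28 and 8.95 on the untreated arrays and 7.12, 6.97, 7.39 and 7.51 on the IL2 arrays, again without overlap. It fell by 1.30 (SE 0.19, limma adjusted p = 0.0137), and its call ended without IL2 replicate 2 or 3 (adjusted p = 0.0582 and 0.0536).

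The other 8 specific granule genes measured did not pass the test. Camp, the cathelicidin precursor, had 8.33, 9.40 and 9.32 untreated and 7.75, 7.55, 8.57 and 8.67 with IL2. Its groups overlapped, since untreated replicate 2 lay below IL2 replicates 3 and 4 (difference -0.88, SE 0.36, limma adjusted p = 0.344). Lcn2, the siderophore-binding lipocalin, had 11.30, 11.86 and 11.86 against 10.77, 10.72, 11.37 and 11.20, with an overlap at untreated replicate 2 and IL2 replicate 3 only (difference -0.66). Ngp, a cathelicidin-related granule protein of mouse neutrophils, had 11.95, 12.40 and 12.38 against 11.81, 11.42, 11.95 and 11.94 (difference -0.46). For Ltf, the iron-binding lactoferrin, IL2 replicates 3 and 4 at 9.82 and 9.73 lay among the untreated arrays at 9.60, 9.60 and 10.30, while IL2 replicates 1 and 2 lay at 8.55 and 8.92. Pglyrp1 encodes a peptidoglycan-binding bactericidal protein, Cd177 a surface protein, Itgb2l an integrin beta subunit and the dim Olfm4 olfactomedin 4. The differences of these 4 ran from -0.27 to -0.01. With title style as a block, Camp and Lcn2 were called lower (-0.71 and -0.57, limma adjusted p = 0.00735 and 0.0118).

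The 4 azurophil granule genes did not pass the IL2 test. Mpo, myeloperoxidase, read 7.27, 9.54 and 9.43 on untreated replicates 2, 3 and 4 and 7.06, 7.32, 8.94 and 9.55 on IL2 replicates 1 to 4. It was thus low on 3 arrays and high on 4, and both groups held low and high arrays. Elane, neutrophil elastase, read 7.77, 9.47 and 8.70 against 7.44, 7.50, 8.43 and 9.24. Ctsg, cathepsin G, read 7.02, 9.19 and 8.65 against 6.85, 7.25, 8.22 and 8.54. Prtn3, proteinase 3, read 6.56, 8.07 and 7.50 against 6.84, 6.39, 7.13 and 7.71. All 4 showed the same split: replicates 3 and 4 were above replicates 1 and 2 in each group. Their IL2 differences were -0.53 (SE 0.77), -0.50 (SE 0.53), -0.57 (SE 0.58) and -0.36 (SE 0.40) for Mpo, Elane, Ctsg and Prtn3. Leaving out 1 array moved them widely, from -1.26, -0.94, -1.21 and -0.76 without untreated replicate 2 to -0.13, -0.0839, -0.12 and -0.0117 without untreated replicate 3. Within arrays whose titles name the time the median difference of the 4 was -0.31, and within the others -0.02.

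**Figure D2:**
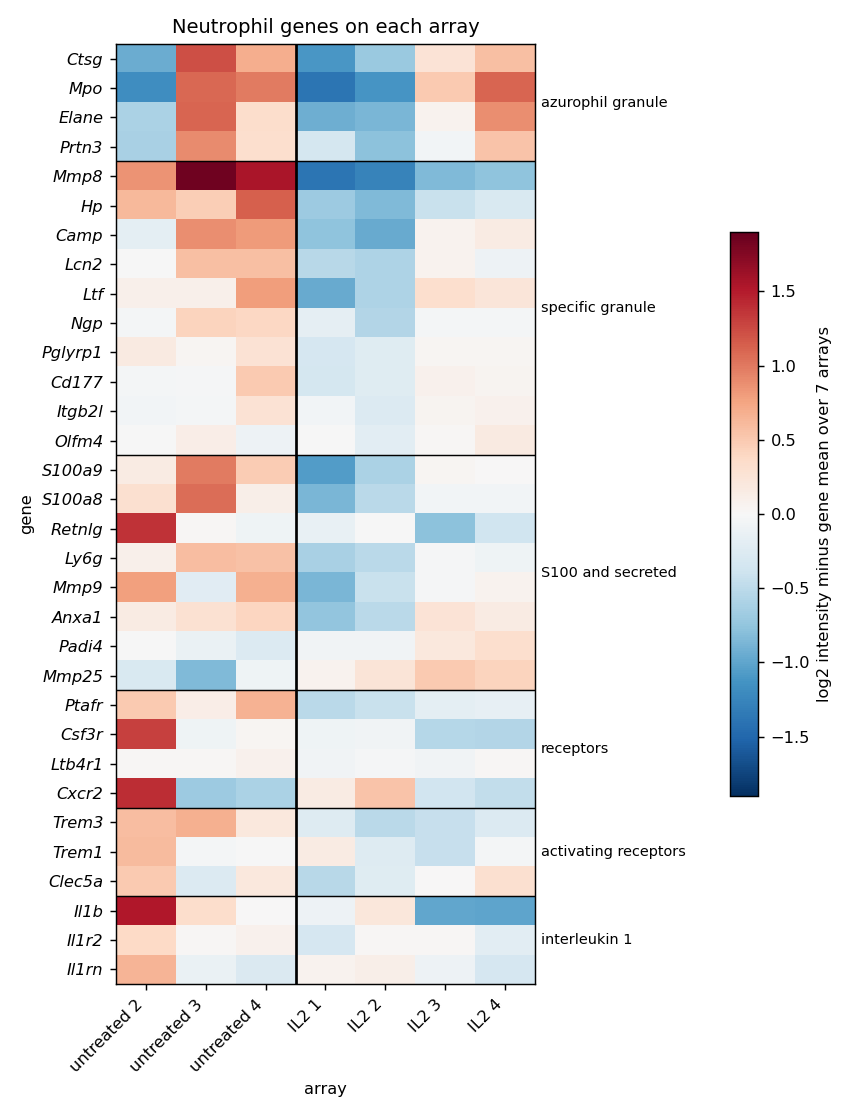
Log2 intensity of each of the 32 genes (rows, grouped by role) on each array (columns), minus the gene's mean over the 7 arrays; red is above and blue below that mean. The 4 azurophil granule genes are red on untreated replicates 3 and 4 and on IL2 replicate 4, while Cxcr2, Csf3r, Retnlg and Il1b are reddest on untreated replicate 2.

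The split by title style was then fitted beside IL2 in 1 model, a contrast added after these values had been seen. Its estimate is how much higher the time-named arrays lay than the others once IL2 is allowed for. Since the azurophil granule genes prompted the contrast, its values for the members are a description and no independent evidence, and no p-value is given for them. Over all genes limma called 5 of 19752 genes (0.0253%), and 2 of the 5 were neutrophil genes. Mpo was 4.34-fold higher on the time-named arrays (log2 difference 2.12, SE 0.16) and Camp 2.00-fold higher (1.00, SE 0.08). The other 3 were Hmox1 (1.64), Msr1 (0.93) and Slc15a2 (-2.09). The number called was 0 with any 1 array left out, where 1080 to 3798 genes had an unadjusted p under 0.05, and 30 after quantile normalization again. The size of the Mpo difference stayed between 1.98 and 2.28 and that of Camp between 0.95 and 1.05 with each array left out. At an unadjusted p under 0.05, 13 members were higher and 5 lower on the time-named arrays (56.2% of members, beside 10.8% of all genes). These counts, and the 2 of 5 above, include genes that prompted the contrast and are no evidence about the members.

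Early granule genes lay on 1 side of this split and mature genes on both. All 14 early granule genes had a positive title style difference, the direction of 13319 of all 19752 genes. The median of the 14 was 0.60, beside 0.07 over all genes. For 10 of the 14, and for 3 of the 18 mature genes, the time-named arrays were higher in both the untreated and the IL2 group. These 13 are 40.6% of members, beside 11.5% of all genes. The reverse order, lower in both groups, held for 0 early granule genes and for 5 mature genes, namely Cxcr2, Csf3r, Retnlg, Il1b and Il1rn (15.6% of members, beside 2.73% of all genes). Among the mature genes 10 differences were positive and 8 negative, with a median of 0.07. Elane, Ctsg and Prtn3 were higher by 1.35 (SE 0.25), 1.55 (SE 0.20) and 0.97 (SE 0.22). No test of early against mature genes was made, since the split was chosen with these data known. The counts of either order include genes that prompted the contrast, so their shares are a description and no evidence about the members.

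**Figure D3:**
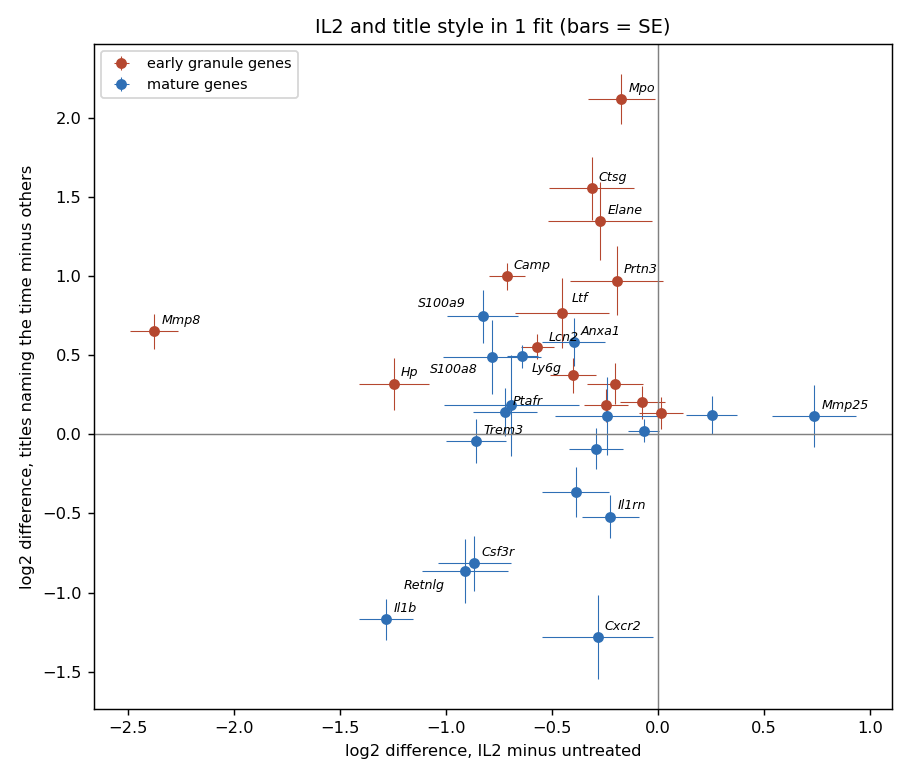
Log2 difference between IL2 and untreated arrays (horizontal) against that between arrays whose titles name the time and the others (vertical), from 1 limma fit of both, with bars of 1 SE, for 14 early granule genes (red) and 18 mature genes (blue). All 14 red points lie above 0 on the vertical axis, up to 2.12 for Mpo, and Cxcr2 lies lowest at -1.28.

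Some other cell type markers moved along the same split, and their part in these values was not tested. All 8 T cell markers had positive title style differences (median 0.73) and all 8 NK cell markers negative ones (median -0.54), though none passed the adjusted threshold. Medians were smaller for B cell (-0.13), dendritic cell (-0.09), eosinophil (0.04), megakaryocyte and platelet (0.18), erythroid (0.21) and monocyte and macrophage markers (0.23). The summed linear intensity of the NK list was 6420 on untreated replicate 2 against 3658 and 3557 on untreated replicates 3 and 4. It was 12807 and 14336 on IL2 replicates 1 and 2 against 10696 and 10404 on replicates 3 and 4. The sum of the 4 azurophil granule genes was 597 on untreated replicate 2 against 2307 and 1688, and 536 and 578 with IL2 against 1274 and 1935. Of the myeloid progenitor markers that are not members, Ms4a3, a gene of granulocyte and monocyte precursors that was dim in the mean, was 0.98 higher on the time-named arrays. Cebpe, the C/EBP epsilon gene, was 0.37 higher, Cd34 0.25 and Kit, the stem cell factor receptor, 0.21. Of 7 mast cell and basophil markers 5 had a positive and 2 a negative title style difference (median 0.15), the largest being that of Mcpt8, a basophil protease (1.49). None of these passed the threshold.

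**Figure D4:**
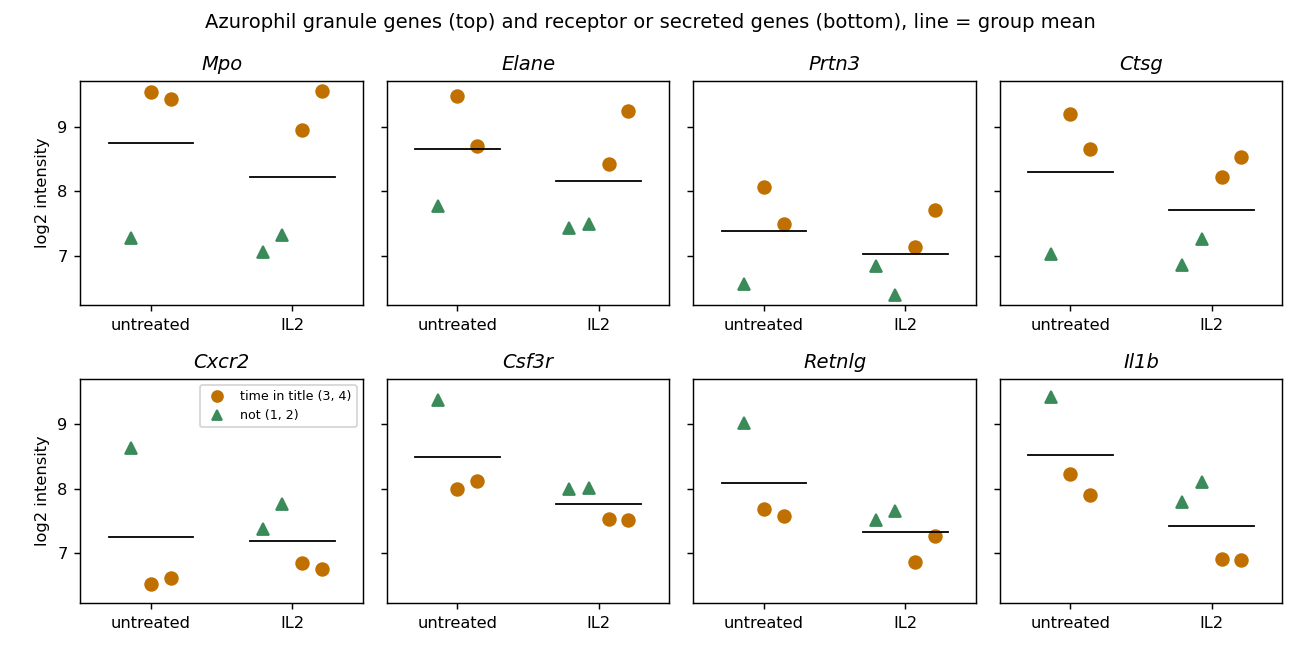
Log2 intensity on each untreated and IL2 array for the azurophil granule genes Mpo, Elane, Prtn3 and Ctsg (top) and for Cxcr2, Csf3r, Retnlg and Il1b (bottom); orange circles are replicates 3 and 4, whose titles name the time, green triangles replicates 1 and 2, and lines group means. Circles lie above triangles within each group in the top row and below them in the bottom row.

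S100a8 and S100a9 encode calgranulins A and B, which join as calprotectin, an abundant cytosolic complex of neutrophils that monocytes also make. S100a8 read 9.79, 10.55 and 9.60 untreated and 8.62, 8.98, 9.43 and 9.43 with IL2. S100a9 read 9.51, 10.34 and 9.84 against 8.29, 8.75, 9.39 and 9.36. Every IL2 array lay below every untreated array for both genes, yet neither passed the test (-0.87, SE 0.28 and -0.95, SE 0.31; limma adjusted p = 0.2 and 0.202). Ly6g, the surface antigen by which mouse neutrophils are usually identified, read 8.49, 8.98 and 8.95 against 7.78, 7.88, 8.37 and 8.31. It too had no overlap and did not pass (-0.72, SE 0.19, limma adjusted p = 0.111). With title style as a block, S100a9 and Ly6g were called lower (-0.83 and -0.64, limma adjusted p = 0.0433 and 0.0061) and S100a8 was not (-0.78, limma adjusted p = 0.148). In that fit 10 of 32 members were called lower (31.2%, beside 1.25% of all genes) and 0 higher. They were Mmp8, Hp, Trem3, Ptafr, Camp, Lcn2, S100a9, Ly6g, Csf3r and Il1b.

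The matrix metalloproteinases did not share a direction. Mmp9, gelatinase B, read 9.45, 8.45 and 9.34 against 7.80, 8.24, 8.65 and 8.74, with untreated replicate 3 inside the range of the IL2 arrays (difference -0.72, limma adjusted p = 0.356). Mmp25, a membrane-anchored metalloproteinase of neutrophils, read 7.75, 7.20 and 7.96 against 8.11, 8.29, 8.55 and 8.46. Every IL2 array was higher, with a difference of 0.72 (SE 0.19, limma adjusted p = 0.116) that passed after quantile normalization again (0.67, adjusted p = 0.0371). Anxa1, the anti-inflammatory annexin A1, had untreated arrays at 8.08, 8.22 and 8.34 and IL2 arrays at 7.18, 7.41, 8.19 and 8.08, low on IL2 replicates 1 and 2 only. Padi4, the enzyme that citrullinates histones in neutrophil extracellular traps, was dim on all arrays, between 6.17 and 6.76.

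Untreated replicate 2 gave the highest value of Cxcr2, Csf3r and the secreted Retnlg, and untreated replicate 4 that of the receptor genes Ptafr and Ltb4r1. Cxcr2, the receptor for CXCL1 and CXCL2 that draws neutrophils from the marrow, read 8.62 on that array and 6.53 and 6.62 on untreated replicates 3 and 4, against 7.38, 7.76, 6.85 and 6.75 with IL2. Csf3r, the G-CSF receptor gene, read 9.38, 8.00 and 8.12 against 8.00, 8.02, 7.54 and 7.52. Retnlg, a resistin-like secreted protein of mature neutrophils, read 9.02, 7.68 and 7.57 against 7.51, 7.65, 6.87 and 7.28. In all 3 genes the other untreated arrays lay more than 1 log2 unit lower. None passed the IL2 test (-0.07, SE 0.52 for Cxcr2, -0.73, SE 0.33 for Csf3r and -0.77, SE 0.36 for Retnlg), and without untreated replicate 2 the differences were 0.61, -0.29 and -0.30. Ptafr, the receptor for platelet-activating factor, read 9.90, 9.54 and 10.07 against 8.90, 8.99, 9.23 and 9.26, and fell by 0.75 (SE 0.15, limma adjusted p = 0.0442). That call held only without untreated replicate 3 and ended with any other array left out (adjusted p of 0.0803 to 0.153). Ltb4r1, a leukotriene B4 receptor gene, ranged from 6.96 to 7.11 over the 7 arrays.

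The IL2 difference of several mature genes was larger between the arrays whose titles do not name the time, among which untreated replicate 2 is the single untreated array. The difference of Cxcr2 was -1.05 there and 0.23 between the time-named arrays, that of Csf3r -1.37 and -0.53, and that of Mmp9 -1.43 and -0.20. The interaction of IL2 and title style, also added after the values had been seen, called 0 of 19752 genes in limma (lowest adjusted p = 0.386). At an unadjusted p under 0.05 it picked 8 members (25%, beside 12.9% of all genes), with 2539 genes in all. These were Csf3r, Cxcr2, Retnlg, Anxa1, Clec5a, Padi4, Il1rn and Mmp9, all with the more negative IL2 difference where the time is not named. Each rests on 1 untreated array where the time is not named. The count includes genes whose values were seen before the contrast was added, and is no evidence about the members.

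The TREM receptors and Clec5a pair with the adaptor DAP12 and amplify inflammatory signals in myeloid cells. Trem3 read 8.45, 8.54 and 8.07 against 7.63, 7.35, 7.42 and 7.60, with no overlap, and fell by 0.85 (SE 0.13, limma adjusted p = 0.017). Its call held without untreated replicate 4 or IL2 replicate 1 and ended without any other 1 array (adjusted p of 0.0561 to 0.0783). Trem1, its neighbour in the genome, was dim and had a difference of -0.33 (SE 0.20). Clec5a, also dim, had untreated arrays at 7.25, 6.50 and 6.95 and IL2 arrays at 6.22, 6.51, 6.76 and 7.05, an overlap over most of the range.

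In the interleukin 1 system, Il1b, the cytokine itself, read 9.42, 8.23 and 7.91 against 7.80, 8.11, 6.91 and 6.89. IL2 replicate 2 lay above untreated replicate 4, and within each title style the IL2 arrays were lower (-1.46 where the time is not named and -1.16 where it is). The difference over all arrays was -1.09 (SE 0.43, limma adjusted p = 0.322) and with title style as a block -1.28 (SE 0.13, limma adjusted p = 0.00381). Il1rn, the receptor antagonist, read 8.30, 7.53 and 7.38 against 7.72, 7.77, 7.56 and 7.33 (difference -0.14), and was 0.14 higher with IL2 without untreated replicate 2. Il1r2, the decoy receptor that mature neutrophils carry, was dim, between 6.36 and 7.04 (difference -0.28).

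Of the 32 genes, 14 were listed as also made by monocytes, a list chosen with earlier results of these data known. Monocytes may make some of the other 18 too. All 4 called genes were among the 14, beside 0 of the 18. With title style as a block 7 of the 14 and 3 of the 18 were called lower, beside 1.25% of all genes. At an unadjusted p under 0.05 in the main fit, 8 and 5 were lower, beside 4.67% of all genes. Because of how the list was chosen, these counts are a description only. The median differences of the 14 and the 18 were -0.74 and -0.48. The 4 of 14 are Mmp8, Hp, Trem3 and Ptafr. The 10 neutrophil defining markers, all members of the set, had 0 calls by limma, 6 at an unadjusted p under 0.05, and a median of -0.73. Of these 10, S100a8, S100a9 and Csf3r are also among the 14. Of 16 monocyte and macrophage markers 13 fell and 0 rose, beside 0.901% of all genes called lower and 2.08% called higher. Their median difference was -1.84. The lysozyme gene Lyz2 fell by 1.77 (SE 0.14, limma adjusted p = 0.00109). Csf1r, the receptor of the macrophage growth factor, fell by 1.91 (SE 0.30), a call that ended without untreated replicate 2 or 4 or without IL2 replicate 2 or 3 (limma adjusted p up to 0.0987). Adgre4, an adhesion receptor of macrophages that was dim in the mean, fell by 3.00 (SE 0.23). Within title styles with and without the time the monocyte list had medians of -1.39 and -1.77, and the members -0.25 and -0.66. The difference between the lists was not tested, and neither was the part of monocytes in the members' values.

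**Figure D5:**
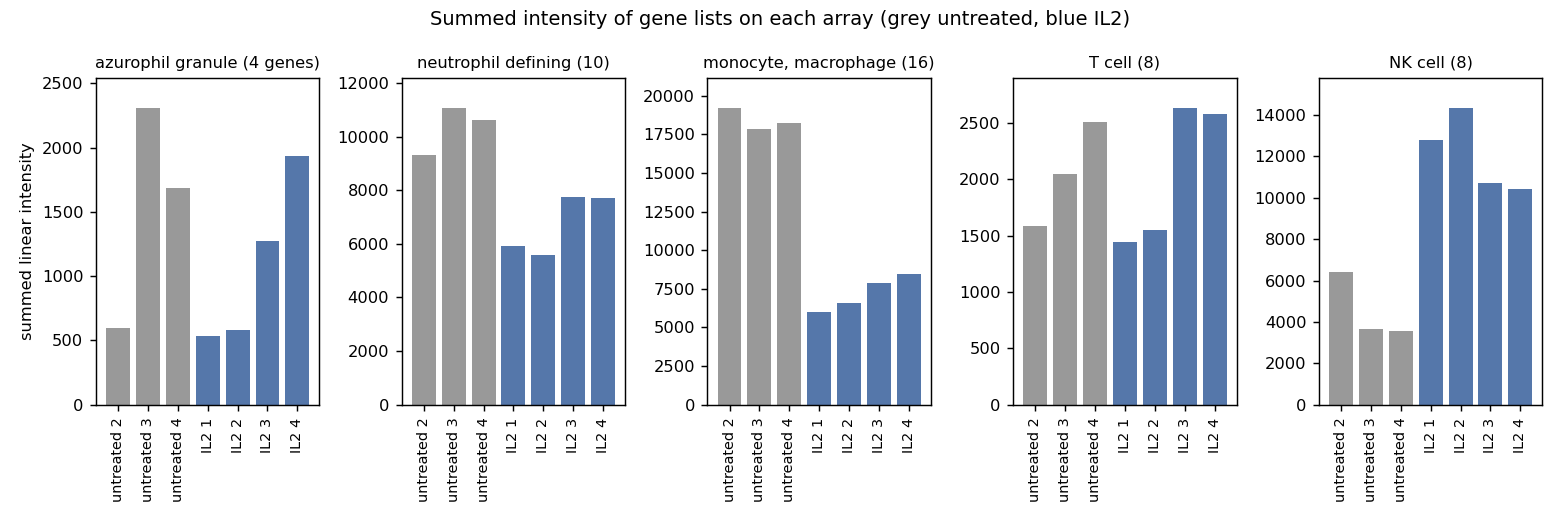
Summed linear intensity of 5 gene lists on each of the 7 arrays (bars start at 0; grey untreated, blue IL2). The monocyte and macrophage list is at 17817 to 19199 on untreated and 6010 to 8452 on IL2 arrays, the neutrophil defining list at 9305 to 11065 and 5570 to 7746, and the azurophil granule list overlaps between groups.

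The sums of linear intensity, which bright probes dominate, had no overlap for the neutrophil defining markers, with 9305 to 11065 on untreated arrays and 5570 to 7746 with IL2. The monocyte and macrophage sum was 17817 to 19199 against 6010 to 8452, and the B cell sum 14352 to 16177 against 12497 to 13144. The NK cell sum went the other way, 3557 to 6420 against 10404 to 14336, and Ncr1, the NK receptor NKp46, rose by 2.18 (SE 0.10). The 10 neutrophil defining markers were all above the dim level in the mean. Eosinophil markers (4 of 6 dim) and mast cell and basophil markers (4 of 7 dim) had 0 calls in limma, with 1 and 0 at an unadjusted p under 0.05.

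Neutrophil genes outside the set followed in part. Of 8 granulocyte transcription factors, Cebpb, which drives emergency granulopoiesis, fell (-0.73, SE 0.12, limma adjusted p = 0.0199). That call ended without untreated replicate 3 or 4 or without IL2 replicate 2 or 3 (adjusted p up to 0.0997). The other 7 did not pass, among them Spi1, the PU.1 gene (-0.67, SE 0.17, limma adjusted p = 0.102). Gfi1 alone of the 8 went the other way (0.38), with every IL2 array above every untreated array. With title style as a block, 1 of the 8 was called higher and 2 lower. Of 5 NADPH oxidase subunits, which make the respiratory burst, 0 were called by limma and 1, Cybb, had an unadjusted p under 0.05 (-0.68, SE 0.20). Of 28 other neutrophil genes 23 had a negative and 5 a positive difference, from -2.02 to 0.85. At an unadjusted p under 0.05, 12 were lower and 3 higher, beside 4.67% and 8.81% of all genes. Beside 0.901% of all genes called lower and 2.08% called higher, 0 of the 28 rose and 6 fell. They were Cd14, the lipopolysaccharide co-receptor (-2.02), Alox5ap, which serves leukotriene synthesis (-1.16), Msrb1, a methionine sulfoxide reductase (-0.999), Cxcr4, which retains neutrophils in the marrow (-0.97), Pirb, an inhibitory receptor (-0.86), and Slpi, an inhibitor of elastase (-0.75). Most of these are made by other leukocytes too. With 1 array left out in each of 7 refits Cxcr4 kept its call in all 7, Cd14, Alox5ap and Msrb1 in 4, Slpi in 2 and Pirb in 1. The calls of Cd14, Alox5ap, Msrb1, Slpi and Pirb all ended without untreated replicate 4 and also without IL2 replicate 2. Of 9 cytokines and chemoattractants linked to neutrophils, Ccl3 (2.80, SE 0.17, limma adjusted p = 0.000376) and Ccl4 (2.42, SE 0.19) rose, chemokines that NK cells are known to secrete. The other 7, Csf3, Csf2, Cxcl1, Cxcl2, Cxcl3, Cxcl5 and Il17a, were dim and did not pass.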

How the data were processed

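Gene expression was measured on 7 Affymetrix Mouse Gene 1.0 ST arrays, 4 IL2 and 3 untreated, grouped by the sample titles. The authors deposited a linear intensity for each transcript cluster on each array. Per the submitters' processing notes, RMA and Affymetrix Power Tools were used; versions, settings and which arrays shared a normalization are not given in the sources used here. For testing, deposited intensities were brought to log2 with no offset. Of 24922 probes, 21425 had 1 gene symbol, 1399 several and 2098 none in the platform annotation; the brightest probe per gene left 19752 genes, with no filter on signal. Cross-hybridisation between related genes was not tested, and depth has no meaning for arrays, whose number limits the precision.

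IL2 and untreated arrays were compared with limma 3.58.1 (R 4.3.3, eBayes defaults, 7.68 total degrees of freedom) and Benjamini-Hochberg correction over all genes at 0.05; SE is that of the moderated fit and ± the SD over arrays. RMA gave exactly equal values on 2 arrays of 1 group for 6 members (S100a8, Ltf, Padi4, Pglyrp1, Ltb4r1 and Il1r2), which lowers their measured spread. Tested on simulated arrays in groups of 4 and 3, the fit recovered 91% of 100 genes changed by 1 and 100% of 100 changed by 2 on the log2 scale, and 4.98% of its calls were unchanged genes. The simulated noise was independent between arrays, with no title style split. These rates therefore do not carry over to genes that follow the split.

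Every measured member is named. Of each other list the text may name the called gene that changed most, or the most changed gene if none was called, with Lyz2, Csf1r and Ncr1; other genes were named after their values were seen. The members, lists and the split into early and mature genes were chosen with earlier results of these data known. Lists are described by counts and medians, with no test. Alternatives were the replicate number or title style as a block, genes at or above the median signal, quantile normalization again, centring, eBayes with trend and robust, array weights (statmod 1.5.0), the mean of all probes, each array left out, and each title style alone. The title style contrast and its interaction with IL2 were chosen after seeing the data. No array was left out.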

Additional observations from a re-analysis of the deposited data

How the results depend on the processing

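Of 539 values of the 32 members' IL2 differences under the alternatives, 485 kept direction and side of the threshold, 23 lost a call, 15 gained one and 16 changed sign. The sign changes were all in genes not called: Olfm4 (0.0135 with title style as a block, 0.0426 after quantile normalization again, 0.0212 with centred arrays, 0.0848 over time-named arrays, and -0.0668 to 0.0576 with 1 array left out), Cxcr2 (0.16 with array weights, -0.44 without untreated replicate 3 to 0.61 without untreated replicate 2, 0.23 over time-named arrays), Il1rn (-0.32 without untreated replicate 4 to 0.14 without untreated replicate 2), Clec5a (0.18 over time-named arrays), and, over the arrays whose titles do not name the time, Prtn3 (0.0531), Ctsg (0.029) and Padi4 (-0.0487). The cause was not tested.

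The count of members called lower was 4, against 10 with title style as a block, 7 after quantile normalization again, 1 over the time-named arrays, 0 over the others (1 untreated array, taken to vary like the IL2 arrays) and 1 to 3 with an array left out; 1 was called higher after quantile normalization again (Mmp25) and 0 with any array left out. Over all genes quantile normalization again gave 694 higher and 577 lower, the time-named arrays 81 and 22, the others 0 and 0 in limma (fewer arrays; 1621 and 1009 at an unadjusted p under 0.05, with 0 members higher and 11 lower), and leaving out an array 134 to 517 and 65 to 152. The median of mature genes was -0.21 over the time-named arrays, -0.92 over the others and -0.63 to -0.30 with an array left out; that of all members was -0.25 over the time-named arrays. Title style called 5 genes, 2 of them members, against 0 and 0 with any array left out and 30 genes after quantile normalization again.

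With the replicate number as a block (replicate block), 7 members were called lower: Camp, Lcn2, S100a9, Il1b and Ly6g gained a call and Trem3 and Ptafr lost theirs (adjusted p = 0.0506 and 0.0767). No label says whether the numbers pair the samples. Deviations from group means correlated at 0.46, -0.30 and 0.31 for replicates 2, 3 and 4, and at -0.48 to 0.45 between different numbers. These correlations cannot settle whether samples were paired. The number of arrays, 3 and 4, limits what can be called, and members below the dim level carry little signal over background.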
